A study of Mus musculus with 12 samples.

Results

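MBD2 binding sites were compared between day 0 and day 1 of muscle differentiation in C2C12, a line of mouse myoblasts. This line withdraws from the cell cycle and fuses into myotubes in DMEM with 2% horse serum. The sites are the peaks of 2 deposited lists, 14968 peaks at day 0 and 470 at day 1, out of 94771 peaks in the 8 lists of the series. Peaks on chromosomes 1 to 19 and X were used where the local background, computed as (pileup + 1)/fold − 1, was at most 10 fragments, which left 14919 day 0 peaks and 425 day 1 peaks, 15344 in all. The limit removed 22 peaks at day 0 and 27 at day 1. The highest background inside it was 7.496 at day 0 and 6.41 at day 1, and the lowest outside it was 10.7 and 13.8. A peak was matched when it shared 1 bp or more with a peak of the other day. Day 0 peaks with a match are called kept and those without are called lost, and day 1 peaks without a match are called new.

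The assay was CUT&RUN, where a nuclease tethered to an antibody releases DNA around the bound protein for sequencing. The day 0 and day 1 groups are the same line. The sample titles name the line, day and antibody, and do not say whether the medium was the same on both days. The labels name no genetic change or added agent. Each had 1 MBD2 library, 1 library for H3K4me3 (a histone modification found at active promoters) and 1 control IgG library that was not analysed here. The labels do not say whether the libraries came from separate cultures. MBD2 was also mapped in day 5 myotubes and in day 5 reserve cells, the cells that stay mononucleated, again with 1 library each. No difference between days therefore has a replicate check, the intervals given are exact Clopper-Pearson 95% intervals that cover counting error only, and no test was made.

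MBD2 is a reader of methylated CpG dinucleotides that recruits the NuRD complex, which joins a chromatin remodelling enzyme to histone deacetylases. Methylated DNA is its known ligand, but MBD2 is also found at unmethylated, active CpG-rich promoters. In myoblasts the step from day 0 to day 1 is the start of differentiation, when MyoD target genes such as Myog begin to be transcribed.

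The sequences under the strongest peaks of each class are shown first, since the short motifs near their summits varied with place and strength. Not every motif shown differed between kept and lost peaks of like strength. Each run is the forward strand of mm10 within 100 bp of the day 0 summit, or of the day 1 summit for new peaks, and annotated exons were left off. Capitals mark the NF-Y box (CCAAT), the AP-1 site (TGAGTCA) and one form of E-box (CAGCTG), searched on both strands. NF-Y is a ubiquitous promoter factor, AP-1 sites are bound by Fos and Jun dimers, and the E-box form is one that MyoD binds. A match is a run of letters and not a measured site. Among genes with an established name, passing over predicted genes and genes with provisional names, the 3 strongest kept promoter peaks were at Srgap2 and Fam72a (chr1:131527491-131527690), at Rnf5 (chr17:34603740-34603939) and at Mylpf and Tbc1d10b (chr7:127208952-127209098, in the first intron of Mylpf).
Srgap2/Fam72a, kept: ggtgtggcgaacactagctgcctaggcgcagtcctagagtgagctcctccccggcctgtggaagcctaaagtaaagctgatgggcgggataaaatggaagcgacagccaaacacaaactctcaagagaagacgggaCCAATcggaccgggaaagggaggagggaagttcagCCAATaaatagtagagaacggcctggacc
Rnf5, kept: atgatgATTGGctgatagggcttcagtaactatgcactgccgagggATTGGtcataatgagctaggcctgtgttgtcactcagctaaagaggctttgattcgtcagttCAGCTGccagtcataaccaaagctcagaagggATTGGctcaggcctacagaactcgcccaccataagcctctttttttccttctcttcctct
Mylpf/Tbc1d10b, kept: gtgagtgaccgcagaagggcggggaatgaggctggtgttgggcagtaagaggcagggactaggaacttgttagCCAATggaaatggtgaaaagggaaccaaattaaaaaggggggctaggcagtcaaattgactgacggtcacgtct
These held 2, 3 and 1 NF-Y boxes. Under the same limit, the strongest lost promoter peaks with a summit outside annotated exons were at the joining segments Traj5 and Traj6 of the T-cell receptor alpha locus (chr14:54213963-54214162) and at Pxmp4 (chr2:154603718-154603917).
Traj5/Traj6, lost: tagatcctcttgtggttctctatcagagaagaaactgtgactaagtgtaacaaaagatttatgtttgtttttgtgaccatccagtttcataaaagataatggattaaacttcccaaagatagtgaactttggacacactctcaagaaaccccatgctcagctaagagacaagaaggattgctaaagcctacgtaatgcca
Pxmp4, lost: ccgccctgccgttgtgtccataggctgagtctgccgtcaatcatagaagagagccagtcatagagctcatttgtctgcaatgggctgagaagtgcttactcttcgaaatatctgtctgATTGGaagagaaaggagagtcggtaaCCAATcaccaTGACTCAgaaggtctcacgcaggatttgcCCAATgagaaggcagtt
The Pxmp4 window held 3 NF-Y boxes and 1 AP-1 site, and the Traj5/Traj6 window held none of the 3 motifs. The 2 strongest new peaks had Islr2 (chr9:58214219-58214418) and Tnp1 (chr1:72969310-72969509) as their nearest protein-coding genes, and held 1 NF-Y box and none.
Islr2 region, new: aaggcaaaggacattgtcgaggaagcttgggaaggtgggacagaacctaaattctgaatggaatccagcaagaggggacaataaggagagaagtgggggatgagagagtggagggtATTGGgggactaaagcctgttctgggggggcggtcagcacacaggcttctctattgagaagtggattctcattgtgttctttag
Tnp1 region, new: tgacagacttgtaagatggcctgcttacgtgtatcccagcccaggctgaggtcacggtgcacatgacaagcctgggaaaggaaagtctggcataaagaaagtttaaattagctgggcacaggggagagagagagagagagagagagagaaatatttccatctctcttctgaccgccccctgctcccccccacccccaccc
The last pair was chosen after the values were seen, to show the motifs that differed most away from promoters. They are the strongest lost distal peak with an AP-1 site, in an intron of Pgs1 (chr11:117989969-117990168), and the strongest kept distal peak with the E-box, 69.0 kb from Hlx (chr1:184663565-184663764). The Hlx peak had a day 0 fold of 39.4. Over a fold of 20 the E-box form did not differ, at 10.9% of kept and 11.5% of lost distal windows.
Pgs1 intron, lost: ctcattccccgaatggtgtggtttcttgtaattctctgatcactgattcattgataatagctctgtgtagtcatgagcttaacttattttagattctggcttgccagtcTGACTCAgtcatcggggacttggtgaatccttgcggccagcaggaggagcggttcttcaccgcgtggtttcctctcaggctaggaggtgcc
Hlx region, kept: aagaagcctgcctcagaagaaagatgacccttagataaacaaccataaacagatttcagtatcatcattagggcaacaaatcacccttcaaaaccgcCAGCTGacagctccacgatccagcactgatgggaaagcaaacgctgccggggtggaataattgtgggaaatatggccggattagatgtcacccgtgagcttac

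The day 1 list kept few of the day 0 sites. A day 1 peak overlapped 386 of the 14919 day 0 peaks (2.59%), and 14533 (97.4%) were lost. In the other direction 391 of the 425 day 1 peaks overlapped a day 0 peak, and 34 (8.00%) were new. That count of new peaks depended on the match: it was 275 when each peak had to share at least 50% of its length, and 257 against the 425 strongest day 0 peaks. A lost peak is one absent from the day 1 list, and signal there too low to be called is not recorded in it. The lowest pileup (fragments over the summit) was 4 at day 0 and 5 at day 1, and the lowest local background was 0.360 and 0.286 fragments. The part of library quality or sequencing depth in the difference was not tested.

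The H3K4me3 libraries of the same days carried their muscle labels. All 5 myoblast genes examined (Myod1, Myf5, Des, Cdh15 and Met) had promoter H3K4me3 on both days. The 5 differentiation genes Myog, Mymk, Tnnt1, Tnnt2 and Myh3 had none at day 0, and all had it at day 1. Among genes of other lineages, 0 of 12 blood, 0 of 12 liver and 0 of 18 germline genes were marked at day 0, as were 8 of 14 neuronal and 6 of 14 fat, bone and cartilage genes. None of the 10 muscle genes had a promoter MBD2 peak at day 0.

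Kept peaks were the strong ones. Fold enrichment, the authors' ratio of a peak to its local background, had a median of 16.2 at day 0 in kept peaks (quartiles 8.82 and 27.3) against 5.88 in lost peaks (quartiles 4.50 and 7.89). Kept peaks were also wider at day 0, with a median of 725 bp against 386 bp. Of the 10 strongest day 0 peaks 9 were kept, of the strongest 50 it was 43, and of the strongest 100 it was 76. The 1491 peaks of the top decile of day 0 fold held 252 of the 386 kept peaks (65.3%). The ranges still overlapped. 385 lost peaks were stronger than the kept median, and 28 kept peaks were weaker than the lost median.

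Place went with keeping as well as strength. A peak was placed at a promoter when it overlapped the 1 kb either side of an annotated transcript start, and this held for 201 of 386 kept peaks (52.1%, interval 47.0 to 57.2) and 2757 of 14533 lost peaks (18.97%, 18.3 to 19.6). Lost peaks lay mostly in introns (42.5%) and between genes (36.3%), where 22.8% and 24.1% of kept peaks lay. Over all strengths 6.80% of promoter peaks were kept, against 1.55% elsewhere. The promoter share was also higher among strong peaks. Of peaks with a day 0 fold over 20, 102 of 153 at promoters were kept (66.7%, 58.6 to 74.1) and 46 of 177 elsewhere (26.0%, 19.7 to 33.1). Between folds of 10 and 15 the shares were 11.2% and 3.18%, and between 15 and 20 they were 27.6% and 12.1%. Peaks over 20 were not of equal strength, since 56 of the 153 promoter peaks and 9 of the other 177 were over 40. Between folds of 20 and 30 the shares were 49.3% (37.2 to 61.4) and 19.9% (13.6 to 27.4). Between 30 and 40 (69.2%, 48.2 to 85.7, and 44.4%, 25.5 to 64.7) and over 40 (87.5%, 75.9 to 94.8, and 66.7%, 29.9 to 92.5) the intervals overlap. At folds up to 5 nearly none were kept in either place, 0.128% and 0.162%.

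**Figure D1:**
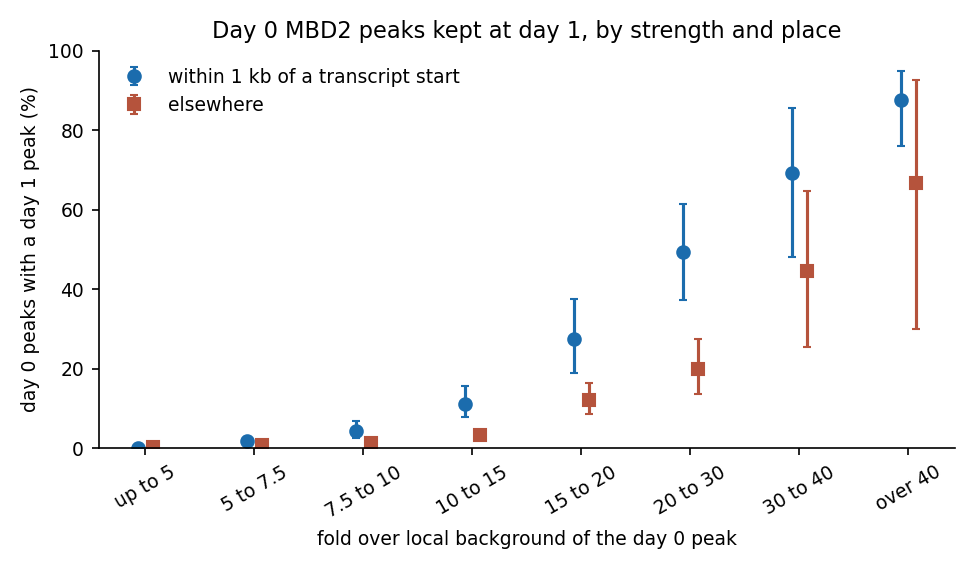
Share of day 0 MBD2 peaks with an overlapping day 1 peak (percent), by the day 0 fold over local background. Circles are peaks within 1 kb of a transcript start, squares all other peaks, and bars are exact 95% intervals; the promoter share reaches 87.5% above a fold of 40 and is above the other share in every bin over 5.

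H3K4me3 at day 0 was more frequent at kept peaks. It overlapped 272 of 386 kept peaks (70.5%, 65.6 to 74.97) and 5146 lost peaks (35.4%, 34.6 to 36.2). Among peaks with a fold over 20, 113 of 190 with H3K4me3 were kept (59.5%) and 35 of 140 without. The 2 features were set side by side over a fold of 20. Promoter peaks with H3K4me3 were kept in 95 of 137 cases (69.3%, 60.9 to 76.9) and distal peaks with H3K4me3 in 18 of 53 (34.0%, 21.5 to 48.3). Distal peaks without the mark were kept in 28 of 124 cases (22.6%, 15.6 to 31.0), an interval that overlaps that of the marked distal peaks. Of the marked peaks, 48 at promoters and 4 elsewhere were over a fold of 40, so these classes differ in strength too. Only 16 promoter peaks over a fold of 20 lacked the mark, and 7 were kept (43.8%, 19.8 to 70.1).

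Most lost promoter peaks still had H3K4me3 at day 1. Of 2269 lost promoter peaks with H3K4me3 at day 0, 2171 still overlapped it at day 1 (95.7%, 94.8 to 96.5), against 186 of 190 kept promoter peaks (97.9%, 94.7 to 99.4). Away from promoters the mark remained at 1859 of 2877 lost peaks (64.6%, 62.8 to 66.4) and at 65 of 82 kept peaks (79.3%, 68.9 to 87.4). Peaks with no H3K4me3 at day 0 overlapped it at day 1 in 12 of 114 kept cases (10.5%, 5.56 to 17.7) and 176 of 9387 lost cases (1.87%, 1.61 to 2.17). Of these peaks 11 kept and 488 lost ones were at promoters. Over all peaks the kept ones were wider at day 0 (median 725 bp against 386 bp). The shares were not compared at equal width or strength.

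The strongest kept peak of all spanned the promoter shared by Srgap2, whose product shapes membranes and inactivates Rac, and Fam72a (chr1:131526933-131528109). Its pileup was 206 at day 0 and 94 at day 1, and its fold 116 and 56.7. Rnf5, which encodes a ubiquitin ligase of the endoplasmic reticulum, had a fold of 99.5 at day 0 and 27.5 at day 1 (chr17:34603338-34604531). The peak at the start of Mylpf, a regulatory myosin light chain of fast muscle, had folds of 96.0 and 43.4 (chr7:127208742-127209493). These 3 peaks had pileups of at least 45 fragments on both days, far above the lowest listed.

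Next among the named kept promoters came Sp2, an Sp-family transcription factor, with folds of 93.4 at day 0 and 34.2 at day 1. Tomm40, the channel of the mitochondrial import machinery, had 87.5 and 31.1. Cnot3, a subunit of the CCR4-NOT deadenylase, had 85.3 and 21.7. Further down came Sin3a, the scaffold of a histone deacetylase complex (75.7 and 27.2), the divergent pair Cdca2 and Kctd9 (69.8 and 26.4), Creb3l2, a transcription factor held in the endoplasmic reticulum membrane (69.1 and 25.7), and Eif2ak3, the stress kinase PERK (66.0 and 14.96). Ranking by day 1 fold brought in Tubb4b, a beta-tubulin (63.2 and 31.1), Slc25a42, a mitochondrial coenzyme A carrier (49.997 and 27.2), and Vcp, an ATPase that extracts ubiquitinated proteins (57.3 and 25.7). All 13 of these promoters carried H3K4me3 on both days. Their summits lay between 338 bp upstream and 100 bp downstream of the nearest start.

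**Figure D2:**
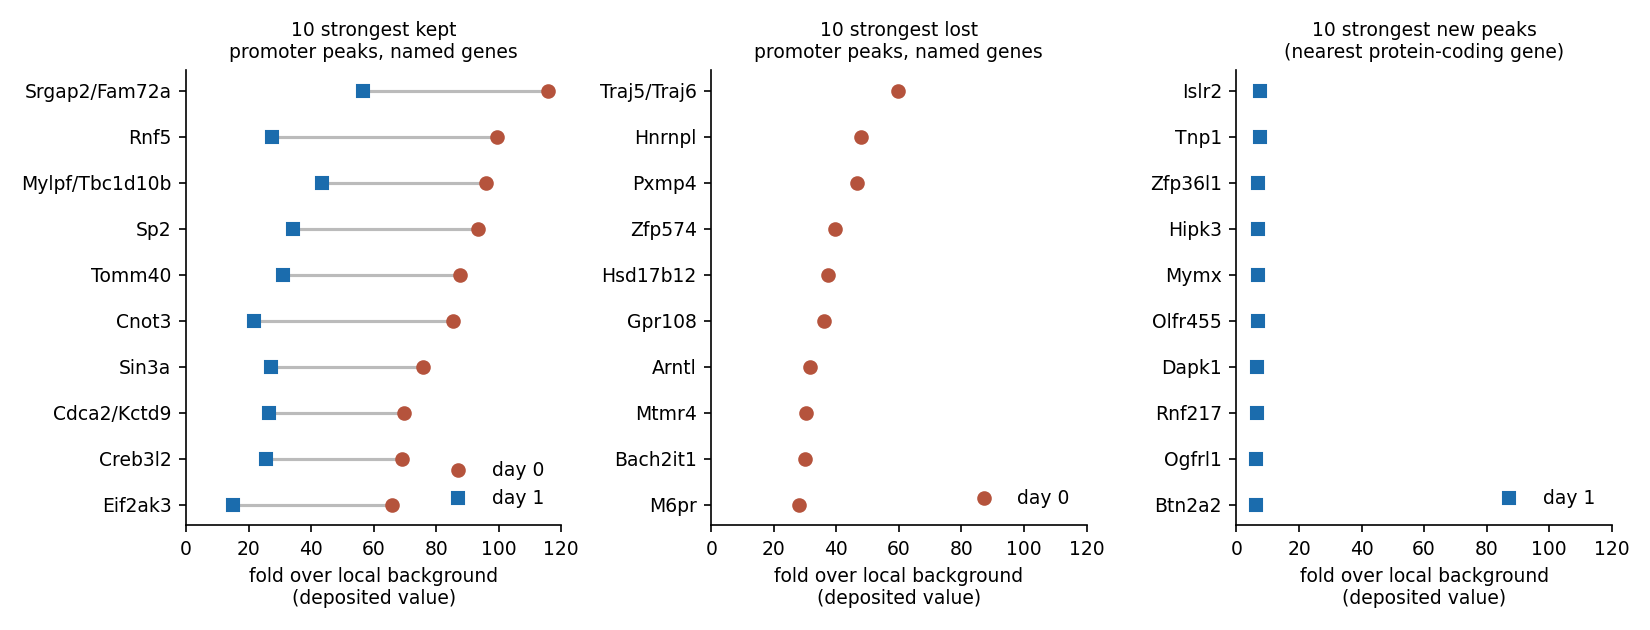
Fold over local background, as deposited, of the 10 strongest kept promoter peaks at named genes on both days (left), the 10 strongest lost promoter peaks at named genes at day 0 (middle) and the 10 strongest new peaks at day 1 (right). Circles are day 0 and squares day 1; predicted genes are left out, among them a lost peak of fold 111. The kept peaks shown run up to 116 at day 0, the lost ones from 27.9 to 59.6, and new ones stay at or below 7.62.

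Some strong promoter peaks were nonetheless lost. The strongest with a named gene was at Traj5 and Traj6 (chr14:54213661-54214631), with a pileup of 87, a fold of 59.6 and no H3K4me3 on either day. Hnrnpl, a splicing regulator, had a day 0 fold of 47.8 (chr7:28810436-28810911), and Pxmp4, a peroxisomal membrane protein, one of 46.8 (chr2:154603630-154604324). Zfp574 had 39.7, Hsd17b12, an enzyme of fatty acid elongation, 37.5, and Gpr108, a Golgi membrane protein, 36.2. Arntl, the circadian clock factor BMAL1, had 31.6, Mtmr4, a phosphoinositide phosphatase, 30.2, Bach2it1, a transcript within Bach2, 30.1, and M6pr, a mannose 6-phosphate receptor, 27.9. Apart from Traj5/Traj6, all of these promoters had H3K4me3 on both days. The strongest lost peak of all had only a predicted gene at its start and is named here after its values were seen. It lay on chr8:84381287-84382391, 33.5 kb from Cacna1a, with a pileup of 198 and a fold of 111.

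Kept and lost promoter peaks sat in similar positions. Relative to the nearest protein-coding start the median summit was 151 bp upstream in 167 kept peaks (quartiles 262 bp upstream and 13 bp downstream) and 129 bp upstream in 1991 lost peaks. Of kept summits 56.9% (49.0 to 64.5) lay 50 to 400 bp upstream, against 47.9% (45.7 to 50.1) of lost ones. The 2 intervals overlap.

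**Figure D3:**
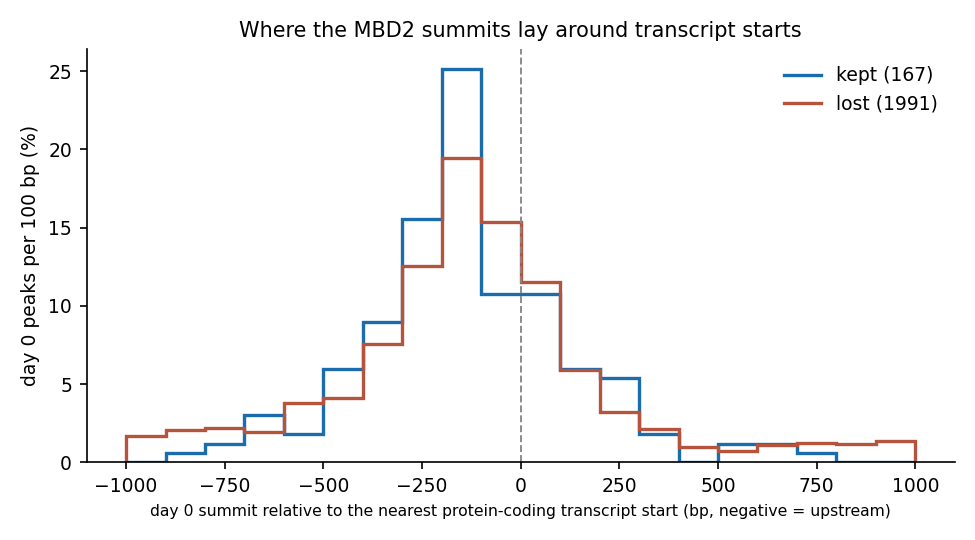
Position of the day 0 MBD2 summit around the nearest protein-coding transcript start, in 100 bp bins from 1000 bp upstream (negative) to 1000 bp downstream, as the percent of kept (167) and lost (1991) promoter peaks. Both classes peak 100 to 200 bp upstream of the start, with 25.1% of kept and 19.4% of lost summits there.

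Small nuclear RNA genes, most of which encode RNA parts of the spliceosome, were compared with the 6.80% of all promoter peaks that were kept. Within 500 bp of RefSeq snRNA genes there were 60 day 0 peaks, of which 14 were kept (23.3%, 13.4 to 36.0). These peaks were strong, with a median day 0 fold of 10.9, and 27.4 at U2 genes, against 5.88 at lost promoter peaks. Promoter peaks of folds 10 to 15 and 15 to 20 were kept in 11.2% and 27.6% of cases, and the snRNA share was not compared at equal strength. At U2 genes 6 of 12 were kept, at U1 genes 2 of 17, at U3 genes 2 of 6, and at tRNA genes 1 of 55. Among the 14 kept, the peaks at Kmt5c, Poldip3, Rdm1 and Gtf3c6 also overlapped these protein-coding promoters. They do not belong to the snRNA gene alone. The strongest kept U2 peak (chr1:72243748-72245198) had a fold of 97.1 at day 0 and 13.2 at day 1. These genes have near-identical copies, so the copy that gave the reads is uncertain. By the type of gene at the start, 7.55% of 2279 peaks at protein-coding promoters were kept, and 3.12% of 385 at promoters of long noncoding RNAs.

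Kept peaks were narrower at day 1, with summits near those of day 0. A kept peak had to share 1 bp or more with a day 1 peak, so near summits follow in part from that rule. They do not show that sites stayed in place. The day 1 summit lay a median of 65 bp from the day 0 summit, and within 100 bp in 250 of 386 kept peaks. The day 1 peak was narrower in 375, with median widths of 286 bp at day 1 and 725 bp at day 0. The deposited fold was lower at day 1 in 352 and not lower in 34, but each list is scaled to its own background and the libraries were not scaled to each other. Across the 201 kept promoter peaks the rank correlation of the 2 folds was 0.769, and across the 185 kept distal peaks it was 0.251. The correlations are descriptions over peaks that share the same 2 libraries, and peaks are not replicates.

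**Figure D4:**
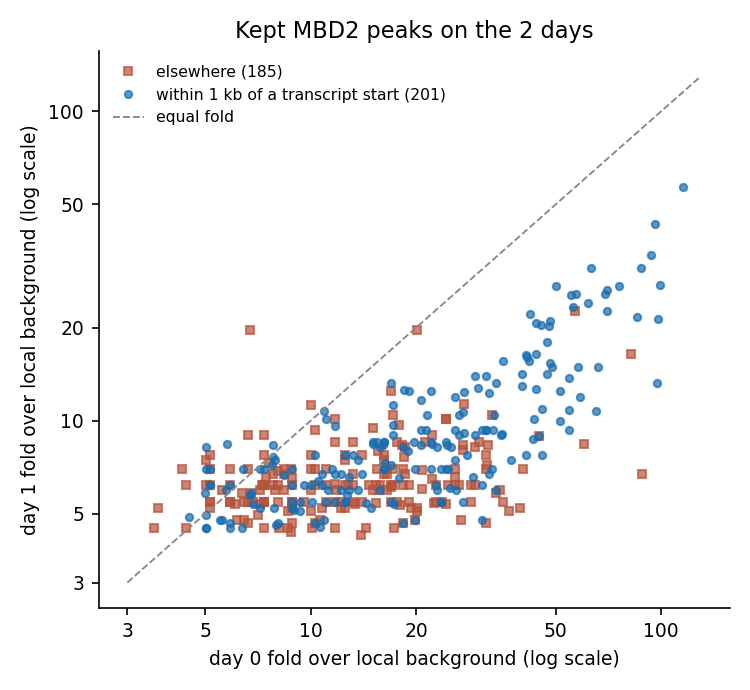
Deposited fold over local background at day 0 (x axis) and day 1 (y axis) of the 386 kept MBD2 peaks, both on log scales. Circles are promoter peaks and squares other peaks, and the dashed line marks equal folds. The promoter peaks run along a rising band, while most other peaks stay at a day 1 fold under 10 whatever their day 0 fold. The lowest fold in the day 1 list was 4.26.

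The strongest kept distal peaks illustrate that spread. A peak 43.8 kb from Camk1g, a calcium-dependent kinase, had a day 0 fold of 88.1 and a day 1 fold of 6.73 (chr1:193413042-193414458). One 95.8 kb from Slc1a3, a glutamate transporter, had 81.9 and 16.4 (chr15:8805787-8807320). One in an intron of the long noncoding RNA gene Pvt1 had 60.3 and 8.39, one with H3K4me3 96655 bp from Mir148a had 56.7 and 22.5, and one in an intron of Lurap1l had 44.9 and 8.95. The strongest lost distal peaks had day 0 folds of 45.9 (307 kb from Angpt1, an angiopoietin), 44.9 (178 kb from Ankrd50), 41.2 (in Cubn), 39.0 (in Pgs1, with H3K4me3 on both days) and 36.7 (27.0 kb from Has2, a hyaluronan synthase). At day 0 the Slc1a3 peak and the strongest lost distal peak both lay where no H3K4me3 peak was called.

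The short motifs near the summit differed by place and strength. Among promoter peaks, an NF-Y box was present in 122 of 201 kept windows of 200 bp (60.7%, 53.6 to 67.5) and in 37.4% (35.5 to 39.2) of lost windows. At least 2 boxes were present in 38.8% and 14.7%. The same letters were found in 28.8% of 41220 windows of equal length centred 150 bp upstream of all protein-coding starts, and in 29.2% of 25579 windows spaced along the genome. Within ranges of strength the excess in kept promoters was not seen. Above a fold of 20 the box was in 80.4% (71.4 to 87.6) of kept and 78.4% (64.7 to 88.7) of lost promoter windows. Between 10 and 20 it was in 44.8% (31.7 to 58.5) and 59.3% (53.7 to 64.8), and up to 10 in 34.1% and 33.6%. The boxes printed above in the Srgap2, Rnf5, Mylpf and Pxmp4 windows are of this kind, present in strong peaks of both classes.

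Away from promoters the AP-1 site was less frequent in kept peaks. The motif was narrowed after these data were seen, so its shares are not an independent check. It was present in 20 of 185 kept distal windows (10.8%, 6.73 to 16.2) and in 2428 of 11776 lost ones (20.6%, 19.9 to 21.4), against 3.05% of genome windows. The order was the same in each range of strength, 7.69% against 20.3% up to a fold of 10, 13.5% against 22.8% between 10 and 20, and 10.9% against 22.9% over 20, and in the upper 2 ranges the intervals overlap. At promoters the site was in 1.99% (0.545 to 5.02) of kept and 7.65% (6.69 to 8.71) of lost windows.

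The E-box form ran the other way. It was present in 41 of 185 kept distal windows (22.2%, 16.4 to 28.8) and in 13.8% (13.2 to 14.4) of lost ones, against 7.29% of genome windows. The excess lay in the weaker peaks, with 26.2% (16.0 to 38.5) against 13.8% up to a fold of 10 and 25.7% (16.2 to 37.2) against 13.8% between 10 and 20. Over a fold of 20 the shares were 10.9% and 11.5%. At promoters the E-box form was in 9.95% of kept and 9.94% of lost windows. The 8 motifs searched included GC, RUNX, TEAD, ETS and CRE forms. Of these the GC box (GGGCGG) was in 44.8% (37.8 to 51.9) of kept and 32.8% (31.0 to 34.6) of lost promoter windows. Up to a fold of 10 it was in 29.3% of kept and 32.4% of lost windows, between 10 and 20 in 43.1% and 34.7%, and over 20 in 52.0% (41.8 to 62.0) and 37.3% (24.1 to 51.9), with overlapping intervals in each range. The RUNX form (TGTGGT) was in 6.97% (3.86 to 11.4) of kept and 12.3% (11.1 to 13.6) of lost promoter windows, and these intervals overlap too.

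**Figure D5:**
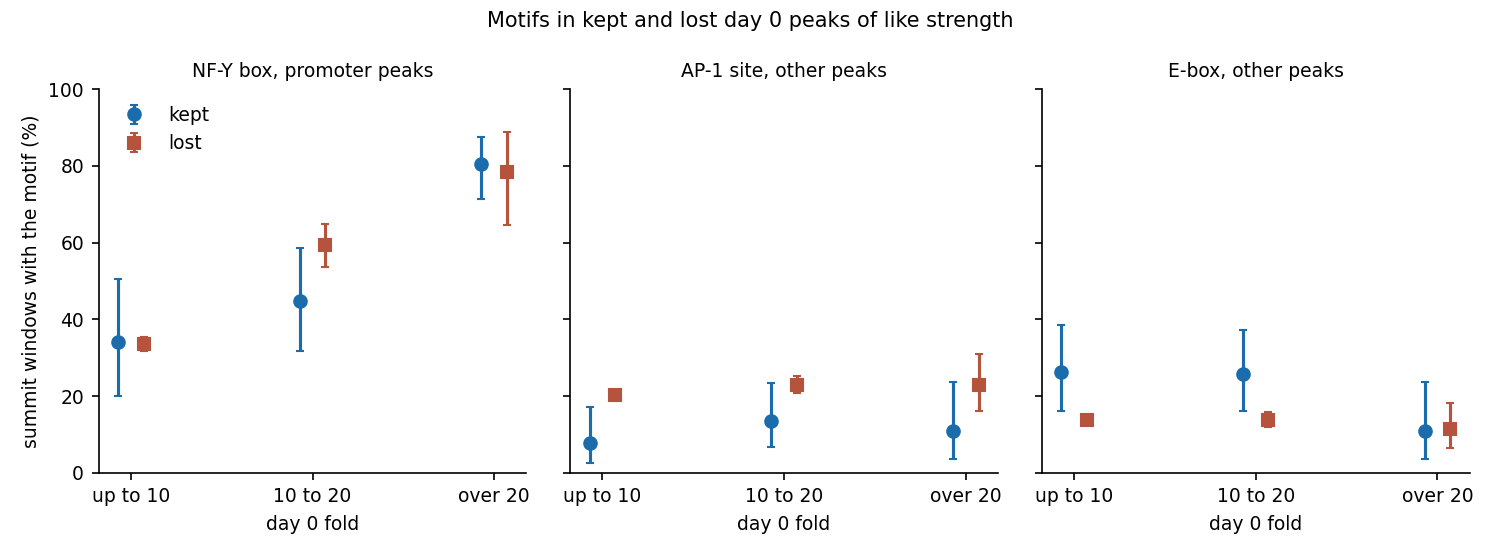
Percent of 200 bp summit windows holding the NF-Y box (promoter peaks, left), the AP-1 site (other peaks, middle) and the E-box form (other peaks, right), by day 0 fold. Circles are kept and squares lost day 0 peaks, with exact 95% intervals; the NF-Y box rises with strength in both classes, the AP-1 site is lower in kept peaks in each range, and the E-box form is higher in kept peaks up to a fold of 20. The AP-1 motif was narrowed after the data were seen.

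CpG content differed more by place than by class. At promoters the median window held 9 CpGs in kept and 7 in lost peaks, with observed over expected ratios of 0.685 and 0.549, and windows upstream of all protein-coding starts held a median of 7. Away from promoters both classes had a median of 2, with ratios of 0.207 and 0.209, against a median of 1 and a ratio of 0.145 in genome windows. DNA methylation was not measured in the data used here.

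Counted by gene, 2428 of 21727 protein-coding genes (11.2%) had a day 0 peak at their promoter. Of these 204 (8.40%) had one at day 1 as well and 2224 (91.6%) did not. A further 7 genes had one at day 1 alone. The 25 gene lists below were drawn up with earlier results of these data known, and their counts are read against those shares.

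Of the 3 muscle lists, 2 had day 0 MBD2 in a larger share of genes than the 11.2% of all protein-coding genes. Most of the other lists did too, among them satellite and reserve cell genes (36.8%), ubiquitin and proteasome genes (29.2%) and NuRD subunits (28.6%). The ribosomal and translation, liver, germline, neuronal and blood lists were below it. The larger share was therefore not particular to muscle genes. Several of these lists were also rich in promoters with H3K4me3 at day 0. It was at 11 of 12 myogenic regulators and 14 of 14 NuRD subunits, against 12386 of 21727 protein-coding genes. It was at 20 of 20 ribosomal and translation genes as well, a list below the 11.2%. The shares were not compared among marked genes alone. Of 12 myogenic regulators 4 had MBD2 at day 0 (33.3%), and only Tcf3, the E protein that pairs with MyoD, kept it, with folds of 16.2 and 8.55. Hes6 and Six4 lost it, with day 0 folds of 5.15 and 5.02. Of 43 sarcomere genes 4 had it (9.30%), and Mylpf and Actn3, the fast-fibre alpha-actinin (16.9 and 13.2), kept it while Klhl41 (8.09) and Ldb3 (5.88) lost it. The Mylpf peak is shared with Tbc1d10b and the Actn3 peak with Zdhhc24, so neither belongs to the muscle gene alone. Klhl41 is a sarcomere-assembly gene that had no H3K4me3 at day 0 and had it at day 1. All 3 of the 12 fusion genes with MBD2 (Myof, Jam2 and Dysf, folds of 5.74, 4.30 and 3.58) lost it, as did 91.6% of all protein-coding genes with it.

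Cell cycle genes mostly lost their peaks. All 8 of the 20 replication genes that had MBD2 at day 0 lost it, led by Cdc45 (10.6), Mcm7 (10.04) and Mcm6 (5.88), whose products are parts of the replicative helicase. The Cdc45 peak is shared with Ufd1 and the Mcm7 peak with Ap4m1. Of 6 mitosis genes with a peak, Cdca2 (a peak shared with Kctd9) and the kinase gene Aurka (6.37 at day 0 and 4.49 at day 1, a peak shared with Cstf1) kept it. Cdk1 (9.31), Top2a (7.35), Anln (4.74) and Ccna2 (4.47) lost it. The 3 cell cycle exit genes with a peak, Ccnd3, Rbl1 and Gadd45b, lost it at folds of 6.45 or less. With a background of 91.6% lost, a loss of 8 of 8 is near what all genes showed.

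Chromatin genes divided by strength. The 4 of 14 NuRD subunits with MBD2 at their own promoters, Mbd3 (14.7), Gatad2a (12.8), Gatad2b (8.82) and Chd4 (6.44), all lost it, as did Mbd4 (shared with Ift122, 9.003) and Uhrf1 (3.91) among methyl-CpG readers. Of 9 genes for other histone-modifying complexes, Sin3a, the demethylase gene Kdm4a (41.4 at day 0 and 16.1 at day 1) and the acetyltransferase gene Kat7 (16.1 and 8.36) kept it. The other 6 lost it. In RNA decay Cnot3 and Cnot1 (30.1 and 12.7) kept it, and Dgcr8 (6.62) and Cpsf6 (4.30) lost it. Of all protein-coding genes with a day 0 promoter peak 91.6% lost it, so the loss at all 4 NuRD subunits is near that share. The other 8.40% kept it. The kept counts come from short lists drawn up with earlier results of these data known.

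Housekeeping lists held several kept genes, which were known as strong MBD2 promoters when the lists were drawn up. Their kept counts follow in part from that choice. Among all protein-coding genes with a day 0 promoter peak 8.40% kept it. Of 7 ubiquitin and proteasome genes, Rnf5, Kctd9 and Vcp kept their peak, and of 5 mitochondrial import and carrier genes, Tomm40 and Slc25a25 (56.1 and 23.3) did. The Kctd9 peak is the one counted above for Cdca2. Of 11 tubulin and actin cytoskeleton genes 4 kept it, namely Srgap2, Tubb4b, Myh9, a nonmuscle myosin (25.9 and 5.97), and Pfn1. At Pfn1, an actin monomer-binding protein, the fold was 5.02 at day 0 and 8.23 at day 1, with pileups of 6 and 10. Of the kept genes in the lists it alone had the higher fold at day 1. Vim (11.5) and Vcl (10.3) led the 7 that lost it.

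In signalling and stem cell lists 2 genes kept MBD2. Fzd2, a Wnt receptor, had folds of 8.82 and 5.24, and the imprinted gene Inpp5f had 7.97 and 4.62. The other 5 Wnt genes, led by Gsk3b (8.38), lost their peaks, as did all 4 Notch genes, led by Numb (15.1) and Maml1 (8.82). All 7 satellite and reserve cell genes lost theirs, among them Junb (13.04), Egr1 (8.82), Foxo3 (8.09), Jun (5.88) and Fos (5.15). Lost peaks at genes of other lineages included Lox (14.0), Thbs1 (8.61) and Col1a1 (3.59) among matrix genes and Cebpa (10.04), Sox9 (7.27) and Runx2 (6.62) among fat, bone and cartilage regulators. All 5 Hox genes with a peak lost it, at folds of 6.62 or less. Of all protein-coding genes with a day 0 promoter peak 91.6% lost it, so the complete losses in these short lists are near that share. No germline, neuronal or blood gene of the lists had MBD2 at its promoter at day 0.

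New peaks were few and weak. The 34 had a median day 1 fold of 5.70 and pileups of 5 to 10, against a median fold of 6.73 in the 391 day 1 peaks with a day 0 match. Only 8 of 34 lay at promoters (23.5%, 10.7 to 41.2), 10 lay in introns and 16 between genes. More than 50% of the window was repeat-masked in 7 of 34 (20.6%, 8.70 to 37.9), against 35 of 391 matched day 1 peaks (8.95%, 6.31 to 12.2). H3K4me3 overlapped 15 of 34 at day 1 (44.1%, 27.2 to 62.1) and 17 of 34 at day 0.

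The 2 strongest new peaks had folds of 7.62, 10 kb from Islr2 (chr9:58214094-58214430), and 7.48, 46.5 kb from Tnp1 (chr1:72969326-72969535). The first lay 108 bp from a day 0 peak. The next were in an intron of Rad51b with Zfp36l1 as the nearest protein-coding start (6.997), 73.7 kb from Hipk3 (6.997), 14.4 kb from Mymx, the myomixer gene needed for myoblast fusion (6.73, chr17:45616270-45616602), in an intron of Olfr455 (6.73), 134 kb from Dapk1 (6.67) and in an intron of Rnf217 (6.57). New promoter peaks included Ntn1, the guidance protein netrin-1 (5.57), Ap3d1, an adaptor protein subunit (5.26), Serf2 (5.24), Cic, a transcriptional repressor that also had a kept promoter peak (5.24 at the new one), Tnc, the matrix protein tenascin-C (4.57), and the pair Snrpd3 and Gucd1 (4.49). These 6 promoters had H3K4me3 on both days. Counting a gap of up to 500 bp as a match left 30 new peaks.

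Kept sites were also more often found at day 5. Of 386 kept peaks 54 overlapped one of 261 MBD2 peaks of myotubes (14.0%, 10.7 to 17.9) and 39 overlapped one of 69 in reserve cells (10.1%, 7.28 to 13.6). Of 14533 lost peaks 91 (0.626%, 0.504 to 0.768) and 18 (0.124%, 0.0734 to 0.196) did. Kept peaks were also stronger at day 0, with a median fold of 16.2 against 5.88 in lost peaks. The day 5 shares were not compared at equal strength. Of 34 new peaks 0 overlapped either list, and a count of 0 allows a share of up to 8.82%, taken as 3 of 34 peaks and not as a Clopper-Pearson bound (10.3%). The Srgap2/Fam72a peak was listed in all 4 MBD2 lists, with folds of 6.95 in myotubes and 18.5 in reserve cells. Mylpf was listed in reserve cells, with a fold of 9.25, and not in myotubes.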

How the data were processed

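The submitters' processing notes name Trim Galore, Bowtie2, SAMtools and MACS2 and the mm10 build. Versions, settings, read totals and any use of IgG as control: not given in the sources used here. Pileup in the deposited lists is a signal, whole for all 14968 and 470 MBD2 peaks. The deposited fold enrichment is a ratio, per the file headers. The authors also list −log10 of the p-value and of the q-value, in columns whose names are damaged and which were identified by place.

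Peaks were filtered, matched and annotated with Python 3.11.15, pandas 2.3.3, numpy 2.4.6 and scipy 1.17.1, using GENCODE M21 basic genes, RefSeq small RNA genes and the RefSeq GRCm38.p6 sequence, the same assembly as mm10. The steps were tested on simulated lists. 504 of 505 list genes matched by name. The AP-1 motif was narrowed after the data were seen. Named peaks were the 10 strongest of each class by fold, the 5 strongest distal ones of each, and per list the kept and new genes with the 3 strongest lost; further lost list genes were named after their values were seen. Predicted genes were passed over, and some list genes are not reported here. The members and lists were chosen with earlier results of these data known.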

Additional observations from a re-analysis of the deposited data

How the results depend on the processing

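No paired analysis was possible because each day had 1 library. With 8 alternative settings 59 of 86 recomputed values stayed within the interval of the reported value, or within 1.5 times a reported count. Kept peaks had the higher promoter share under 8 of 8 settings, and the higher fold and H3K4me3 share under 6 of 6. Removing the background limit, lowering it to 5, and matching peaks within 500 bp moved no value outside these bounds. The bounds are wide for new peaks, whose promoter share went from 23.5% to 38.6% without the background limit.

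An overlap of at least 50% of each peak left 150 kept and 275 new peaks. Kept peaks then had a promoter share of 67.3%, a median fold of 18.4 and an H3K4me3 share of 81.3%. A −log10 q of at least 5 left 204 kept, 7786 lost and 16 new peaks. Promoters then made up 66.2% of kept peaks, median folds were 22.7 (kept), 7.88 (lost) and 6.997 (new), H3K4me3 shares were 77.5% (kept) and 38.9% (lost), and 1215 genes lost a promoter peak. Taking the 425 strongest day 0 peaks left 165 kept, 260 lost and 257 new. Their promoter shares were 66.1% (kept) and 27.7% (lost), median folds 30.8 and 21.3, H3K4me3 shares 75.8% and 42.3%, and 48 genes lost a promoter peak. Promoter windows of 500 bp and 2 kb gave lost promoter shares of 16.0% and 23.8%.

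The count of new peaks rests most on the overlap rule and on the length of the day 0 list. Day 1 pileups of 5 to 10 at new peaks limit what these lists show of them.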
